A study of Arabidopsis thaliana with 15 samples.

Results

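The genes described here encode the cytosolic heat shock chaperones HSP70, HSP90 and HSP101 of Arabidopsis thaliana and 3 of their partner proteins. They were taken as a list of 10 genes out of the 18934 in the table of counts per gene. The 48 tag clusters (TCs) of transcription starts that make up their counts were taken too, out of 26677 TCs. The list was chosen with earlier results of these data known. The HSP70 genes were HSC70-1 (AT5G02500), HSC70-3 (AT3G09440), HSP70-4 (AT3G12580) and HSP70b (AT1G16030). The HSP90 genes were HSP90.1 (AT5G52640) and HSP90.2 (AT5G56030), and the disaggregase gene was HSP101 (AT1G74310). The co-chaperone genes were BAG6 (AT2G46240), ROF2 (AT5G48570) and HOP3 (AT4G12400).

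HSP70 proteins bind exposed hydrophobic stretches of unfolded proteins in cycles driven by ATP, which J-domain proteins start and BAG-domain proteins such as BAG6 help to end. HSP90 completes the folding of clients that include kinases and immune receptors, and HOP proteins such as HOP3 hold HSP70 and HSP90 together for the transfer. HSP101 pulls proteins out of aggregates and is needed for acquired heat tolerance in Arabidopsis. Many of these genes are targets of heat shock factors, transcription factors that bind inverted GAA repeats called heat shock elements.

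The counts came from CAGE, which captures capped 5′ ends of RNA, so that a tag is read as a transcript start. Levels were not scaled by the length of the gene. Tags were not marked by molecule, so several can stem from the same RNA. Whole seedlings of the Col-0 ecotype, grown for 12 days and kept for 48 h in liquid medium, were 14 days old when they received 3.3 µM flg22, an immunogenic peptide of bacterial flagellin, dissolved with DMSO. Pools of 10 seedlings gave the RNA, with 5 µg going into each library. The 5 groups of 3 libraries were wild type (wt) after 10 and 30 min, hen2-4 after 10 and 30 min, and rrp4-2 after 30 min. The hen2-4 plants carry a T-DNA insertion in HEN2, the gene of a nucleoplasmic helicase that works with the nuclear exosome, and rrp4-2 plants carry a point mutation that weakens RRP4, a core subunit of the exosome. All groups had received flg22, and no untreated library and none with DMSO alone was used here. The time comparison is therefore between stages of the treatment. Because the seedlings were sampled whole, a lower level can mean fewer cells of a type or less RNA per cell, and these cannot be told apart.

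The libraries held 13904125 to 24753128 gene tags. Markers of shoot and of root were present in every library, with group means of 13630 to 20490 CPM (tags per 1000000 tags of a library, whose size was adjusted by TMM) for the sum of 5 shoot genes and of 112 to 260 CPM for the sum of 7 root genes. Replicate 3 of wt at 30 min stood apart from its group. It had 92.1 CPM of root markers against 297 and 322 CPM in the other replicates of its group, and it held the highest value of its group for 9 of the 10 chaperone genes, HSP90.1 being the exception. Calls of the 10 genes that rested on it are given with and without it. Genes were called where the log2 fold change reached 1 in size and edgeR's adjusted p was not above 0.05, and all 10 genes passed the filter on low counts.

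Heat shock elements were looked for in the 300 bases around the most upstream TC of each gene, from 250 bases before its upstream edge to 50 bases after it. The short form (GAANNTTC or TTCNNGAA, which overlap in the long form) was found in 7 of the 10 genes, against 18.8% of the 18839 genes with such a window. The long form of 3 units (GAA, TTC and GAA, or TTC, GAA and TTC, each separated by NN) was found in 4 of the 10, HSC70-1, HSC70-3, HSP70-4 and HSP90.1, against 0.589% of genes. Both strands are covered by these letters. The 4 long matches are printed with 30 bases each, to let the matches of the HSP70 genes be compared with that of HSP90.1, from the TAIR10.1 sequence and in the direction of the gene, with the match in capitals.
HSC70-1 (chr5:556553-556582, minus strand): caaccatcGAACATTCTCGAAacattttaa
HSC70-3 (chr3:2905893-2905922, minus strand): atcgaaccGAACATTCTCGAAcctttttaa
HSP70-4 (chr3:3993845-3993874, minus strand): ttactcgtGAACGTTCTCGAAagctctttg
HSP90.1 (chr5:21352254-21352283, plus strand): aacgaaaaGAACTTTCTGGAAttcgtttgc

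The match of HSC70-1 began 1 base before the upstream edge of its first TC, that of HSC70-3 began 42 bases and that of HSP90.1 109 bases before the edge, and that of HSP70-4 lay 36 bases inside the TC. HSP101, HOP3 and BAG6 held only the short form. The 200 bases before the first TC of HSP90.1 (chr5:21352171-21352370, plus strand) are printed as an example of a promoter with several matches, with the heat shock elements in capitals.
HSP90.1 promoter: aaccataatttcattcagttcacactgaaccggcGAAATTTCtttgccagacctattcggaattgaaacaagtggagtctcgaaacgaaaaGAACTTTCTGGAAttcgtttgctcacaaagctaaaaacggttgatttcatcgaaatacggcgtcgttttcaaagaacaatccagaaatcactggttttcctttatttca
A TATAAA box was found in the windows of HSP90.1 and ROF2, 2 of the 10 genes, against 38.1% of genes. It began 30 bases inside the TC of HSP90.1 and 206 bases before that of ROF2. The window was set from the upstream edge of the TC, so boxes farther downstream, such as that of BAG6 given below, were not counted. These matches describe the letters only. HSP70b and ROF2 held no heat shock element of these forms in this window, and neither did HSP90.2.

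The comparison of 30 with 10 min in wt asked how the chaperone genes changed over the first phase of the response. All 10 were called higher at 30 min, where edgeR called 7.55% of the 18879 genes tested higher (11.2% in either direction). As the list was chosen with earlier results known, this count describes the list and does not test it. In all 10, every library at 30 min lay above every library at 10 min, as it did in 17.1% of all genes. The median log2 fold change was 3.68 over the 10 genes and 0.01 over all genes. Their summed level was 2645 ± 359 CPM at 10 min and 15960 ± 4308 CPM at 30 min (SD, n = 3). As a share of the raw gene tags, with no TMM adjustment, they took 0.286% ± 0.0336 and 1.43% ± 0.253.

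HSC70-1 and HSC70-3 encode cytosolic HSP70s that are made without stress. HSC70-1 (chromosome 5, 553745 to 556623) stood at 1922, 1359 and 1766 CPM in the wt libraries at 10 min and at 3246, 4521 and 5430 CPM at 30 min. By level it held rank 42 of the 18879 genes at 10 min and rank 9 at 30 min, after a rise of 2.61 times (log2 1.39, SE 0.23, adjusted p 0.000398). HSC70-3 (chromosome 3, 2902355 to 2905947) stood at 497, 416 and 423 CPM and then at 2646, 2525 and 5393 CPM. It rose by 7.90 times (log2 2.98, SE 0.27, adjusted p 1.29e-06), so that its mean level came close to that of HSC70-1, with overlapping libraries at 30 min.

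The other HSP70 genes, HSP70-4 and HSP70b, are known for their induction by heat, and they moved by very different amounts. HSP70-4 (chromosome 3, 3991117 to 3993886) stood at 61.0, 47.6 and 46.0 CPM at 10 min and at 1912, 3354 and 3651 CPM at 30 min. This was a rise of 57.6 times (log2 5.85, SE 0.27, adjusted p 3.38e-09), and it took the gene from rank 3350 to rank 19 by level. HSP70b (chromosome 1, 5501966 to 5504535) stayed the lowest of the 10, at 6.98, 8.17 and 9.54 CPM and then at 11.9, 16.0 and 28.2 CPM. Its gene level rose by 2.28 times (log2 1.19, SE 0.35, adjusted p 0.0269). That call did not hold without wt replicate 3 at 30 min (log2 0.76, adjusted p 0.15) or without replicate 1, 2 or 3 at 10 min (log2 1.08, 1.18 and 1.30, adjusted p 0.0932, 0.0734 and 0.0502). It was also lost with library sizes alone (log2 0.89, adjusted p 0.0641), a scaling that moved the median of all genes to −0.25.

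HSP90.1, the heat-inducible cytosolic HSP90, and HSP90.2, a constitutive member of the family, ended at similar levels from different starts. HSP90.1 (chromosome 5, 21352557 to 21355147) stood at 33.7, 66.1 and 37.3 CPM at 10 min and at 2734, 1467 and 1890 CPM at 30 min, a rise of 44.4 times (log2 5.47, SE 0.51, adjusted p 1.65e-06). HSP90.2 (chromosome 5, 22686473 to 22689671) stood at 386, 302 and 364 CPM and then at 1559, 1116 and 2858 CPM, a rise of 5.26 times (log2 2.39, SE 0.27, adjusted p 1.23e-05). At 10 min HSP90.2 was above HSP90.1 in all 3 wt libraries, and at 30 min their libraries overlapped. HSP101 (chromosome 1, 27936508 to 27940369) stood at 10.6, 10.3 and 11.3 CPM at 10 min, with little spread, and at 206, 238 and 359 CPM at 30 min. The rise was clear of the spread (log2 4.64, SE 0.28, adjusted p 3.56e-08).

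The co-chaperone genes started low, between 10.6 and 22.3 CPM in the wt libraries at 10 min. ROF2 (chromosome 5, 19690461 to 19693845), which encodes a peptidyl-prolyl isomerase of the FKBP family that binds HSP90, stood at 11.2, 10.6 and 12.2 CPM and then at 299.6, 271 and 581 CPM. Its rise was 33.9 times (log2 5.08, SE 0.36, adjusted p 1.29e-07). HOP3 (chromosome 4, 7338018 to 7341363), the bridge between HSP70 and HSP90, stood at 22.3, 21.8 and 20.2 CPM and then at 326, 423 and 590 CPM, a rise of 20.8 times (log2 4.38, SE 0.21, adjusted p 3.85e-09). BAG6 (chromosome 2, 18986133 to 18990220) encodes a BAG-domain protein that also binds calmodulin. It stood at 16.2, 15.7 and 18.6 CPM and then at 41.0, 70.4 and 123 CPM, a 3.01-fold range and the widest of the 10 genes in that group, and rose by 4.64 times (log2 2.21, SE 0.33, adjusted p 0.00017). By size of the rise, HSP70-4, HSP90.1, ROF2, HSP101 and HOP3 took ranks 18, 22, 33, 48 and 62 of the 18879 genes, while HSC70-3, HSP90.2, BAG6, HSC70-1 and HSP70b took ranks 226, 399, 478, 1068 and 1321.

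**Figure D1:**
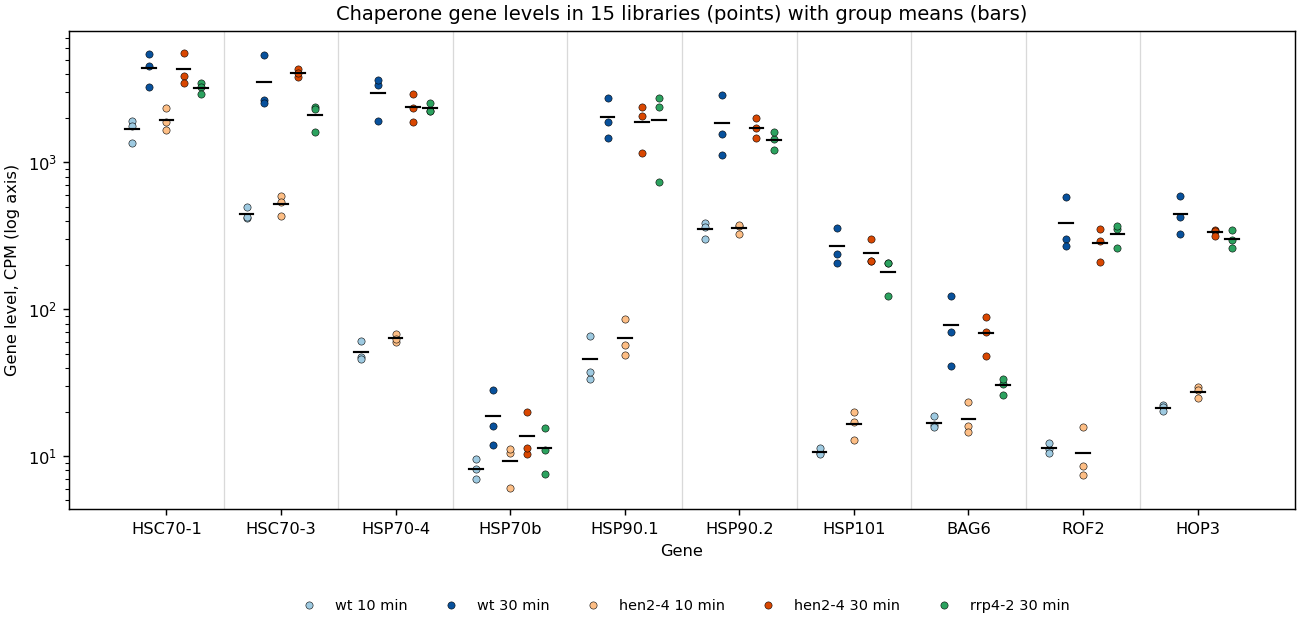
Gene level in CPM (log axis) of the 10 chaperone genes in each of the 15 libraries, with points for libraries and bars for the means of 3 libraries. In wt the libraries at 30 min lie above those at 10 min for every gene, from HSP70b (means 8.23 and 18.7 CPM) to HSP70-4 (51.5 and 2972 CPM).

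The same comparison in hen2-4 used separate libraries. In hen2-4, 9 of the 10 genes were called higher at 30 min, where 6% of all genes were, and in these 9 the libraries of the time points did not overlap (21.7% of all genes). HSP70-4 stood at 67.8, 59.9 and 63.2 CPM at 10 min and at 1884, 2330 and 2942 CPM at 30 min (log2 5.23, SE 0.27, adjusted p 9.69e-09). HSP90.1 stood at 56.7, 49.2 and 85.6 CPM and then at 2393, 2068 and 1152 CPM (log2 4.87, SE 0.50, adjusted p 5.67e-06). ROF2 stood at 8.51, 7.44 and 15.7 CPM and then at 290, 354 and 210 CPM (log2 4.75, SE 0.36, adjusted p 3.36e-07). These 3 had the largest rises in hen2-4, as they had in wt. HSP101 rose from 16.7 ± 3.51 to 242 ± 50.9 CPM (log2 3.86), and HOP3 from 27.5 ± 2.39 to 336 ± 15.4 CPM (log2 3.61; SD, n = 3 for each mean). HSC70-3 rose from 519 ± 77.8 to 4050 ± 255 CPM (log2 2.96), HSP90.2 from 356 ± 28.3 to 1729 ± 265 CPM (log2 2.28) and BAG6 from 17.9 ± 4.63 to 68.9 ± 20.6 CPM (log2 1.94).

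HSC70-1 stood at 2342, 1873 and 1659 CPM in hen2-4 at 10 min and at 3886, 3485 and 5560 CPM at 30 min (log2 1.14, SE 0.23, adjusted p 0.00229). It had the smallest rise among the called genes, and it fell below the fold change limit once hen2-4 replicate 3 at 30 min was left out (log2 0.89, adjusted p 0.0167) and with library sizes alone (log2 0.89, adjusted p 0.0044). HSP70b was the gene not called, at 6.11, 10.4 and 11.2 CPM at 10 min and 10.3, 19.8 and 11.4 CPM at 30 min, with overlapping libraries (log2 0.58, SE 0.35, adjusted p 0.256). Replicate 3 of hen2-4 at 10 min had the highest value of its group for 6 of the 10 genes. In that library the sum of 12 heat response genes that are not among the 10 was 117 CPM, against 22.9 and 37.5 CPM in the other replicates. The part of this library in the results was not tested beyond leaving it out, which left 9 genes called.

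Whether the rise differed between genotypes was tested as an interaction. None of the 10 genes was called, nor was any of the 18879 genes (0% called by edgeR, and 0 of the 10 by DESeq2 and by limma voom). The fitted difference was negative, a smaller rise in hen2-4, for all 10 genes, from −0.02 for HSC70-3 to −0.78 for HSP101. At an unadjusted p below 0.05 there were 2 of the 10, against 5.72% of all genes. They were HOP3 (log2 −0.77, SE 0.26, p 0.00999, adjusted p 0.868) and HSP101 (log2 −0.78, SE 0.35, p 0.0409, adjusted p 0.871). The 2 time changes in each difference share no library, but the 10 genes were measured in the same libraries, so their common sign is not 10 separate observations. Replicate 3 of wt at 30 min, the highest of its group for 9 of the 10 genes, enters every difference.

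**Figure D2:**
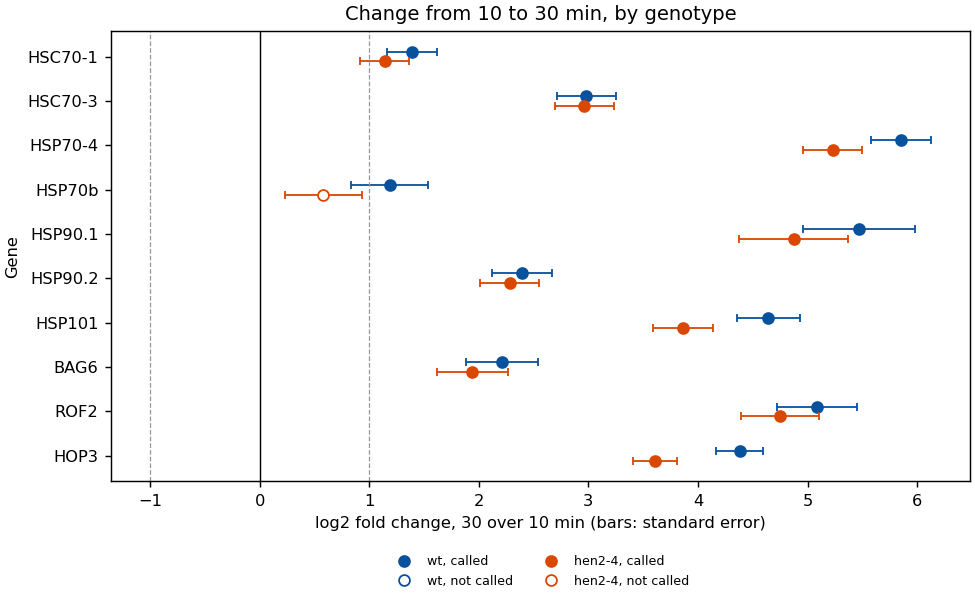
Fitted log2 fold change from 10 to 30 min (x axis) of each chaperone gene in wt and hen2-4, with bars of 1 standard error, filled points for called genes and dashed lines at the fold change limit of 1. HSP70b in hen2-4 (0.58) is the only open point, and the hen2-4 values lie at or below those of wt.

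The mutants were compared with wt to ask whether chaperone transcripts accumulate or are lost when the exosome is impaired. Between hen2-4 and wt at 10 min, edgeR, DESeq2 and limma voom called none of the 10 genes, where edgeR called 1.2% of all genes. HSP101 was higher in every hen2-4 library (17.2, 12.9 and 19.9 CPM) than in every wt library (10.6, 10.3 and 11.3 CPM), with log2 0.64, SE 0.25, p 0.0235 and adjusted p 0.312. It was the only gene of the 10 at an unadjusted p below 0.05 (11.9% of all genes). HOP3 also did not overlap between the genotypes (29.4, 28.2 and 24.8 CPM in hen2-4, log2 0.36, adjusted p 0.478). In all genes, 10.5% had every hen2-4 library above every wt library at 10 min. At 30 min these tools again called none of the 10 between these genotypes (0.996% of all genes by edgeR), the fitted differences ranged from −0.43 to 0.20, and the libraries of every gene overlapped (7.64% of all genes lay wholly above wt and 6.33% below). HOP3 alone had an unadjusted p below 0.05 there, as 11.3% of all genes had (log2 −0.41, p 0.0399, adjusted p 0.407).

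In rrp4-2 at 30 min, 1 of the 10 genes was called lower than in wt, where 2.7% of all genes were called and 0.752% were called lower. This was BAG6, at 26.1, 31.2 and 33.7 CPM in rrp4-2 and 41.0, 70.4 and 123 CPM in wt (log2 −1.37, SE 0.32, adjusted p 0.0246). All 3 rrp4-2 libraries lay below all 3 wt libraries, as in 8.43% of genes. Without wt replicate 3, which had the highest BAG6 level of all libraries, the difference was −0.89 (adjusted p 0.0745). The call was also lost without any 1 of the rrp4-2 libraries (log2 −1.27 to −1.45, adjusted p 0.0637 to 0.0956) and when these groups were fitted alone (log2 −1.37, adjusted p 0.139). Root markers were lower in rrp4-2 as well, with a median log2 difference of −0.98 over the 7 genes and 1 of them called. Their part in the BAG6 difference was not tested.

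The other 9 genes were not called between rrp4-2 and wt, though the fitted difference was negative for each of the 10, with a median of −0.50. Replicate 3 of wt was the highest wt library at 30 min for 9 of the 10 genes. The signs without it are not given here. In wt replicates 1 and 2, every gene but BAG6 and HSC70-3 overlapped the rrp4-2 libraries, among them HSP90.2 (1559 and 1116 CPM) and ROF2 (299.6 and 271 CPM). HSC70-3 stood at 1606, 2400 and 2298 CPM in rrp4-2 and was below every wt library (log2 −0.74, SE 0.25, adjusted p 0.118). HSC70-1 stood at 3465, 3265 and 2922 CPM in rrp4-2, overlapping wt (log2 −0.45, SE 0.22, adjusted p 0.294). These are the constitutive HSP70 genes. HSP70-4 stood at 2546, 2231 and 2243 CPM (log2 −0.34) and HSP70b at 7.53, 11.1 and 15.7 CPM (log2 −0.71). HSP90.1 had a low replicate 1, with 731, 2378 and 2734 CPM in the 3 rrp4-2 replicates (log2 −0.06), and HSP90.2 stood at 1211, 1448 and 1600 CPM (log2 −0.38). HSP101 stood at 122, 207 and 207 CPM (log2 −0.58, SE 0.24, adjusted p 0.204), with replicate 1 well below the others. ROF2 stood at 261, 353 and 366 CPM (log2 −0.23) and HOP3 at 263, 298 and 348 CPM (log2 −0.56, SE 0.18, adjusted p 0.104). BAG6, HSC70-3, HOP3 and HSP101 had an unadjusted p below 0.05, 4 of 10 genes against 18.8% of all. These differences share the wt libraries with those of hen2-4.

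Compared directly at 30 min, rrp4-2 and hen2-4 differed in none of the 10 genes by edgeR and limma voom (0.334% of all genes were called by edgeR), and 2 had an unadjusted p below 0.05 (12.6% of all genes). These were BAG6 (log2 −1.19, SE 0.32, adjusted p 0.121) and HSC70-3 (log2 −0.95, SE 0.25, adjusted p 0.124), whose rrp4-2 libraries all lay below those of hen2-4. They also did for HSC70-1 and HSP101, so that 4 of the 10 genes did not overlap, against 11.5% of all genes that lay wholly lower. BAG6 was called by DESeq2 (log2 −1.19, adjusted p 0.0218) and when these groups were fitted alone (log2 −1.19, adjusted p 0.0248). In hen2-4 it stood at 47.9, 89.0 and 69.7 CPM.

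**Figure D3:**
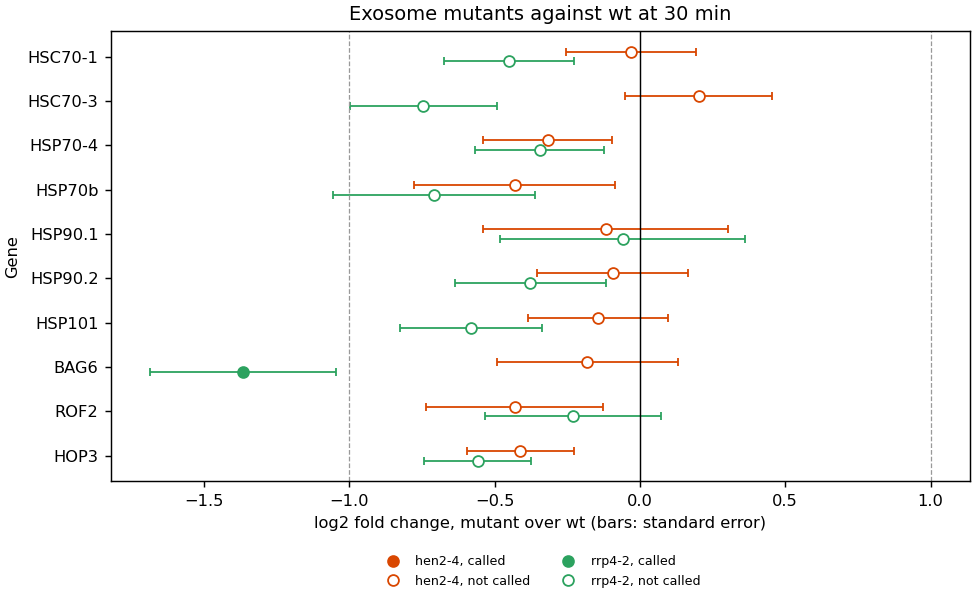
Fitted log2 difference of hen2-4 and rrp4-2 from wt at 30 min (x axis) for each chaperone gene, with bars of 1 standard error, filled points for called genes and dashed lines at 1 and −1. BAG6 in rrp4-2 (−1.37) is the only filled point, and both mutants are set against the same 3 wt libraries.

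The TCs show from where in each gene the tags came. Of the 48 TCs, 41 were called higher at 30 min in wt and 40 in hen2-4, where 8.25% and 7.29% of all 26504 tested TCs were called higher. Without wt replicate 3 at 30 min the count in wt was 39. The gene value of HSP101 rested on 1 TC. HSP70b and BAG6 each had 2 TCs before the start codon, and in both genes these moved apart. CPM of TCs were scaled separately from those of genes. How often the libraries of compared groups do not overlap over all TCs is not given here.

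In HSP70b, the upstream TC (chr1:5504438-5504545, minus strand) spans the annotated 5′ end of the gene, and the downstream TC (chr1:5504378-5504410) is narrower and lies 84 to 52 bases before the start codon. The downstream TC stood at 0.240, 0.273 and 0.777 CPM in wt at 10 min, from only 6, 6 and 12 tags, and at 6.23, 9.83 and 23.6 CPM at 30 min. It rose clear of its own replicate spread (log2 5.03, SE 0.80, adjusted p 0.000305). The upstream TC stood at 6.81, 7.92 and 8.74 CPM and then at 5.56, 6.46 and 4.71 CPM, lower in every library but not called (log2 −0.49, SE 0.24, adjusted p 0.171). The gene value of HSP70b adds up these TCs, of which only the downstream was called. In hen2-4 the downstream TC stood at 0.356, 2.26 and 4.69 CPM at 10 min and at 6.45, 15.7 and 7.79 CPM at 30 min (log2 2.01, SE 0.65, adjusted p 0.0373). Its level at 10 min spread widely, with replicate 1 close to the wt libraries and replicate 3, the library with the high heat response sum, well above them. That call was lost without replicate 1 or 2 at 10 min (adjusted p 0.107 and 0.111), without replicate 2 or 3 at 30 min (0.155 and 0.0541), with library sizes alone (0.0545) and with DESeq2 (0.0502). The upstream TC of hen2-4 went from 5.51, 7.80 and 6.14 to 3.59, 3.73 and 3.56 CPM, below the fold change limit (log2 −0.84, SE 0.24, adjusted p 0.0211). Between hen2-4 and wt at 10 min the downstream TC of HSP70b differed by log2 2.62, SE 0.82, adjusted p 0.0774, with overlapping libraries, and none of the 48 TCs was called by edgeR (5.38% of all TCs were), while 3 had an unadjusted p below 0.05 (16.3% of all TCs). DESeq2 called it (log2 2.56, adjusted p 0.0368), as did the fit that left out replicate 1 of hen2-4 at 10 min (log2 3.11, adjusted p 0.0157), and limma voom did not. Its time change in hen2-4 was smaller than in wt by 3.02 on the log2 scale (SE 1.02, p 0.00948, adjusted p 0.854), which was not called (0.00377% of all TCs). In rrp4-2 at 30 min the TCs of HSP70b stood at 4.77, 6.02 and 11.8 CPM (downstream) and 2.44, 4.84 and 3.47 CPM (upstream).

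In BAG6, the upstream TC (chr2:18986091-18986197, plus strand) spans the annotated 5′ end and the downstream TC (chr2:18986218-18986265) lies just after it. The downstream TC stood at 2.20, 1.41 and 1.03 CPM in wt at 10 min and at 28.5, 53.9 and 115 CPM at 30 min (log2 5.37, SE 0.57, adjusted p 5.14e-06). The upstream TC stood at 14.2, 14.3 and 17.5 CPM and at 12.1, 17.7 and 8.71 CPM, with overlapping libraries (log2 −0.26, SE 0.23, adjusted p 0.485). Only the downstream TC of BAG6 was therefore called. In hen2-4 the downstream TC went from 1.60, 2.17 and 5.96 to 37.3, 74.4 and 56.0 CPM (log2 4.08, SE 0.53, adjusted p 4.65e-05), and the upstream TC from 14.1 ± 2.32 to 12.1 ± 2.17 CPM (SD, n = 3; log2 −0.21, SE 0.23, adjusted p 0.547). In rrp4-2 at 30 min the downstream TC stood at 17.4, 21.3 and 25.4 CPM, below every wt library (log2 −1.62, SE 0.46, adjusted p 0.0346), and was the only 1 of the 48 TCs called in that comparison (7.83% of all TCs, 1.24% lower). The upstream TC stood at 7.57, 9.19 and 7.38 CPM there (log2 −0.67, SE 0.23, adjusted p 0.0859). The call of the downstream TC was lost without wt replicate 3 (log2 −0.95, adjusted p 0.187), without any 1 of the rrp4-2 libraries (adjusted p 0.0726 to 0.121), with library sizes alone (0.0502) and with only these groups (0.0727).

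**Figure D4:**
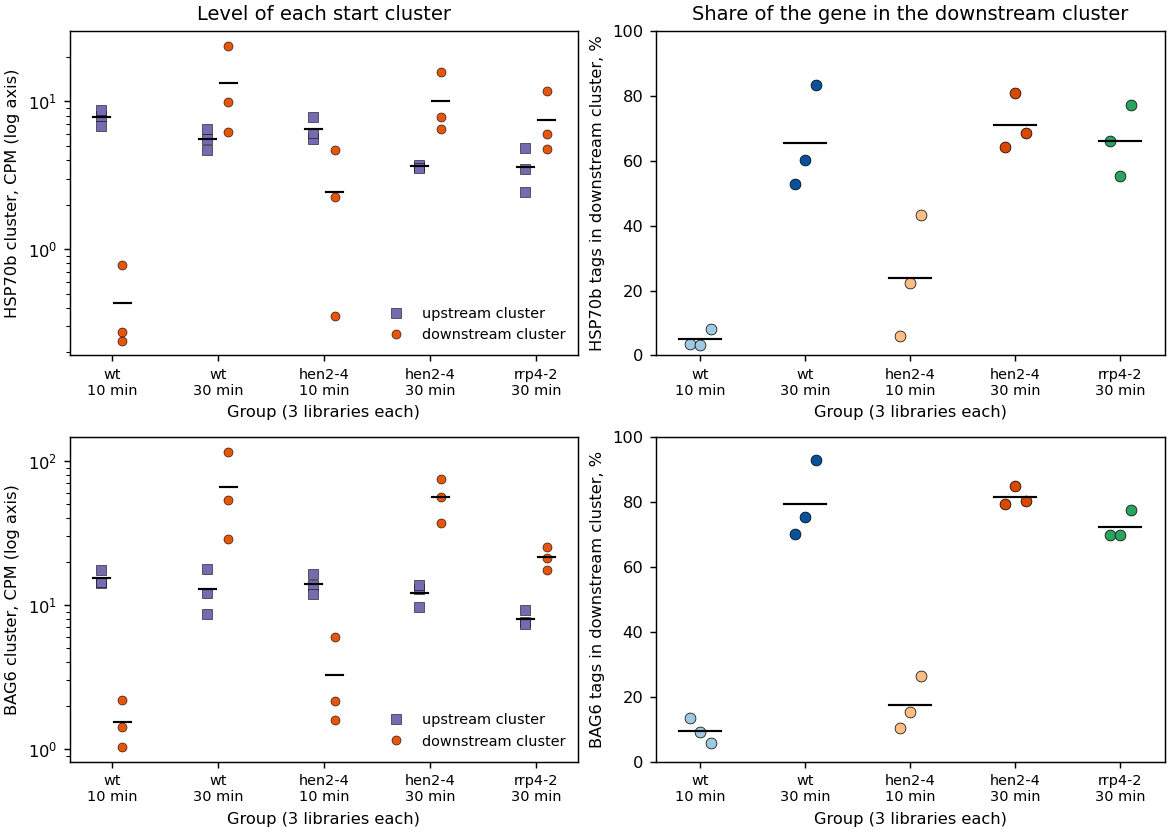
Level of the upstream and downstream TC of HSP70b (top) and BAG6 (bottom) in CPM on a log axis, left, and the percent of the gene's tags in the downstream TC, right, in 5 groups of 3 libraries with bars for means. In both genes every wt library at 30 min, from 52.9% in HSP70b, lies above every wt library at 10 min, up to 13.4% in BAG6. How often shares separate in this way over all genes was not counted.

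The downstream TC of HSP70b held 3.41%, 3.33% and 8.16% of the gene's tags in wt at 10 min and 52.9%, 60.3% and 83.4% at 30 min, and that of BAG6 held 13.4%, 8.96% and 5.58% and then 70.2%, 75.3% and 93.0%. In hen2-4 the share of HSP70b went from 6.06%, 22.5% and 43.3% to 64.2%, 80.8% and 68.6%, and that of BAG6 from 10.4%, 15.4% and 26.5% to 79.4%, 85.1% and 80.3%. The time points did not overlap in either gene or genotype. How often this occurs over all genes with more than 1 TC was not counted. Over both genotypes the upstream share fell by 53.9 percentage points in HSP70b and by 67.2 in BAG6 (exact permutation test of time labels within genotypes, two-sided, p 0.005 and adjusted p 0.0075 over 3 genes for each, 0.005 being the smallest p that 400 arrangements allow). The third gene with more than 1 TC above 10% of its tags was HSP90.1, whose upstream share moved by 2.66 points (exact permutation p 0.165). Unequal change of TCs within a gene was also tested with diffSplice of limma, which called 10.1% of 3617 TCs for wt and 8.71% for hen2-4. The TCs of HSP70b (log2 difference 5.40, adjusted p 0.00053) and BAG6 (5.47, adjusted p 3.11e-06) were called in wt, and again in hen2-4 (3.26, adjusted p 0.00821, and 4.44, adjusted p 1.85e-05). HSP90.1 was not called (0.40, adjusted p 0.824, in wt). A difference of this change between the genotypes was not called (adjusted p 0.997 for each gene, 0% of all TCs). These tests covered only TCs with 10% or more of their gene's tags in 3 or more libraries, counted without regard to time. The downstream TC of HSP70b met this rule in 11 libraries, none of them wt at 10 min. Without the libraries at 30 min it would not have met the rule. The adjustment over 3 genes covers only genes selected in this way. The authors had already reported, from this CAGE data set, that HSP70b and BAG6 use downstream starts after flg22. The p-values of these genes are therefore no independent support.

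The TCs differ in the leader that a transcript from them carries, as read from the annotation. From the upstream TC of BAG6 the spliced leader is 301 to 195 bases long, counted from its upstream and downstream edge, with 3 and 1 ATG triplets before the start codon. From the downstream TC it is 174 to 127 bases long and holds none. In HSP70b the leader is 219 to 112 bases long from the upstream TC, with 1 and 0 upstream ATG, and 84 to 52 bases with none from the downstream TC. The stretches before the downstream TCs are printed here because both were placed inside or next to the upstream TC. A heat shock element of the short form began 66 bases before the downstream TC of HSP70b, and a TATAAA box began 30 bases before that of BAG6, each in capitals.
HSP70b (chr1:5504458-5504487, minus strand): cacgaccttttTTCTCGAAatgtctcgttc
BAG6 (chr2:18986176-18986205, plus strand): tgttcgtctttcTATAAAtcaagaaatgtc

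The other 36 TCs had their midpoint in the coding sequence of 7 genes, HSC70-1, HSC70-3, HSP70-4, HSP90.1, HSP90.2, ROF2 and HOP3, and were 13 to 1341 bases wide. None was centred in an intron. In wt, 31 of the 36 were called higher at 30 min, where 8.25% of all TCs were, and 27 of the 36 rose less than the first TC of their gene. The 36 TCs lie in 7 genes measured in the same libraries, so they are not 36 separate observations. Except in HSP90.1, the first TC itself ran past the start codon, by 11 bases (HSP90.2) to 192 bases (HSP70-4). The first TCs of those genes therefore hold coding positions too. In HSP70-4 all 6 rose less than the first TC (log2 4.68 to 5.33 against 5.88), in HSC70-3 all 5 did (2.1 to 2.65 against 3.00) and in HOP3 both did (3.62 and 3.96 against 4.45). The 5 coding TCs of HSC70-1, at log2 0.77 to 1.1 against 1.41, were not called, though 2 of them were without wt replicate 1 at 30 min (log2 1.37 and 1.17, adjusted p 0.0212 and 0.0322). In ROF2, 5 of 10 rose less than the first TC and in HSP90.2 1 of 3. In HSP90.1 it was 3 of 5, and the others (chr5:21353003-21353050 and chr5:21353220-21353325) had larger fitted values than the first TC (log2 5.60 and 7.27 against 5.51). Each of these had 1 tag over the 3 wt libraries at 10 min, so that their fitted values are no bounds, and they stood at 0.935, 0.843 and 1.5 CPM and at 2.70, 3.31 and 4.27 CPM at 30 min. The coding TCs of ROF2 were also very low in wt at 10 min, with group means of 0.0152 to 0.285 CPM. So were chr3:3992431-3992524 and chr3:3992605-3992683 of HSP70-4 (means 0.0832 and 0.0741 CPM). Their fold changes, and the comparisons with the first TC, are therefore loosely bounded. Tags outside the most abundant TC made up 5.10% ± 2.01 of the HSP70-4 tags in wt at 10 min and 3.10% ± 1.06 at 30 min (SD, n = 3). The largest such share among these 7 genes at 10 min was that of HOP3 (12.1% ± 2.34, then 7.97% ± 3.29), and the smallest that of HSP90.2 (0.371% ± 0.230, then 0.289% ± 0.025).

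**Figure D5:**
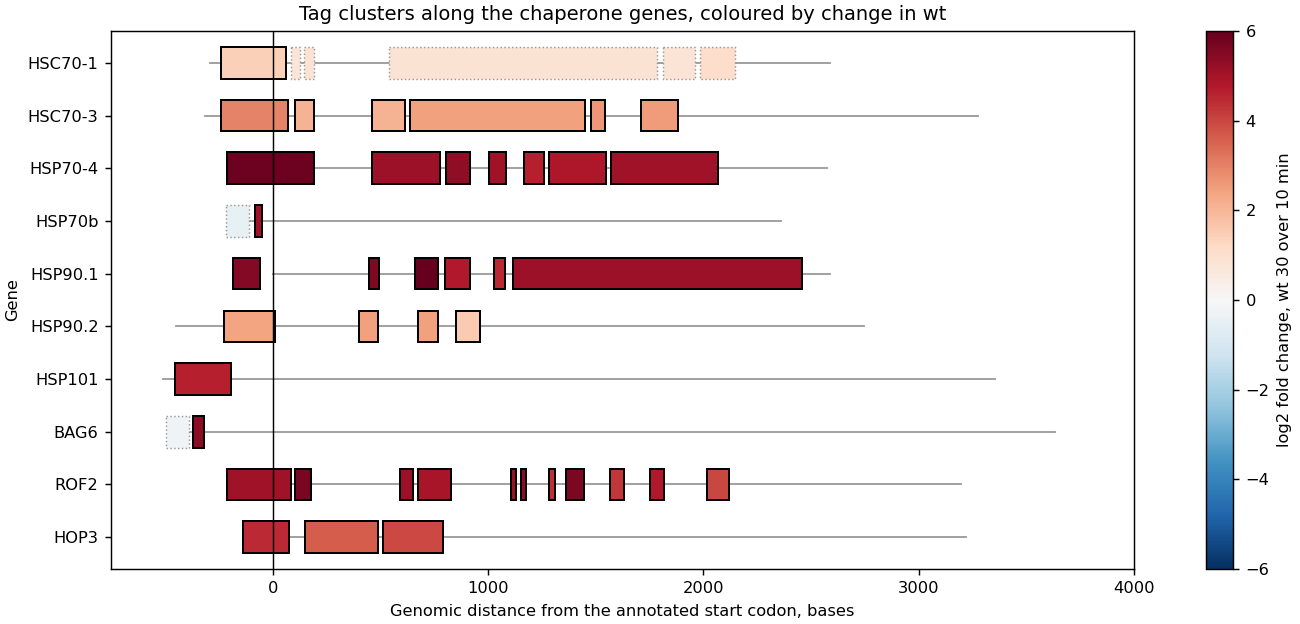
Position of the 48 TCs along the 10 genes, in bases from the annotated start codon and in the direction of transcription, coloured by the log2 fold change of wt from 10 to 30 min. Boxes with a solid edge were called, and the upstream TCs of HSP70b (−0.49) and BAG6 (−0.26) are the only blue ones.

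Reads were 25 bases long and counted only where they mapped once. Of the 48 TCs, 37 had every 25-base start unique in the genome, and the lowest share of unique starts was 77.7%, in a coding TC of HSP90.2, whose coding sequence is 95.7% identical to that of HSP90.3 and 94.3% to that of HSP90.4. Among the first TCs, 8 of 10 were fully unique and the lowest had 90.7%. The coding sequences of the HSP70 genes were 73.6% to 84.4% identical to each other, and that of HSC70-1 was 87.2% identical to that of HSC70-2. HSP90.1 and HSP90.2 shared 79.2%.

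The other genes of the same machinery are given by their counts, against 7.55% of all genes called higher in wt and 6% in hen2-4. Of 9 other HSP70 genes measured, 4 were called higher in wt at 30 min (median log2 0.84), led by HSC70-2, a cytosolic HSP70 (log2 3.80, adjusted p 1.77e-05), HSP70T-2 (2.96) and the mitochondrial mtHSC70-2 (2.61). Of 6 other HSP90 and ClpB genes, 4 rose (median 1.65), with the mitochondrial HSP90.6 at 2.11, the cytosolic HSP90.3 at 2.09 and the mitochondrial CLPB4 at 2.06. Among 14 co-chaperones of HSP70, 6 rose (median 0.35), led by the J-domain protein gene AT2G20560 (4.05), FES1A (2.24), whose product binds HSP70, and the J-domain protein gene ATJ2 (1.95). Among 11 co-chaperones of HSP90, 4 rose (median 0.25), led by SGT1A (2.91), ROF1 (2.41), a relative of ROF2, and AHA1 (2.25), an activator of the HSP90 ATPase. In hen2-4 the counts were 4, 4, 5 and 3. AT2G20560 was called lower in rrp4-2 than in wt at 30 min (log2 −1.31, adjusted p 0.0341). It stood at 54.4, 64.9 and 60.5 CPM in rrp4-2. Replicate 3 of wt was the highest of its group for this gene too, above 74.0 and 114.5 CPM in the other wt replicates. The difference without replicate 3 was not tested.

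All 12 heat response genes, 9 of them small heat shock protein genes, were called higher in wt (median log2 6.99), led by HSP17.6II (8.25), HSP17.6A (7.97) and AT3G46230 (7.70), and 9 in hen2-4 (median 4.44), led by HSP17.6II (6.35), HSP17.6B (6.20) and AT3G46230 (6.08). Their summed level was 22.1 to 27.1 CPM in wt at 10 min and 1068 to 3506 CPM at 30 min. A difference in rise between the genotypes was called for 0 of the 12, as for 0% of all genes. HSP17.6II was low at 10 min, at 1.35, 2.72 and 2.21 CPM in wt and 1.17, 3.94 and 16.8 CPM in hen2-4, so its fold changes are loosely bounded. The median log2 change was −0.41 in wt and −0.38 in hen2-4 for shoot markers and −0.22 and −0.25 for root markers, and the carbonic anhydrase gene CA1 in hen2-4 was the only marker called (log2 −1.11, adjusted p 0.0372). Of 5 reference genes, UBQ10 was called higher in wt (log2 1.13) and in hen2-4 (1.01). The polyubiquitin gene was the only one of the 5 to pass, and the median of the 5 was 0.03 in wt.

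Across the 15 libraries, 9 of the 10 genes followed each other closely, with Pearson r of log2(CPM + 1) of 0.80 to 0.99 over their 36 pairs, while HSP70b had r of 0.58 to 0.84 with the others. These values describe libraries that share the step from 10 to 30 min. By the same measure, over 13416 genes with a mean of at least 5 CPM, the genes most like HSP101 were HOP3 (r 0.99), AT1G07400 and AHA1, and those most like HOP3 were AT4G28085, AHA1 and HSP70-4. HSP90.2 was most like its relative HSP90.3 (r 0.995), ROF1 and mtHSC70-2. ROF2 was most like HSP17.6B, FRB1 and AT1G55450, and HSP90.1 like LOH2, AT4G35110 and PAPP2C. HSC70-3 was most like AT3G50910, PDIL2-3 and AT2G20560, and HSP70-4 like AT5G12110, AT1G19020 and AT4G28085. HSC70-1 was most like AT3G54200, AT1G66070 and AT1G66080 (r 0.96 to 0.97), and BAG6 like AT1G71950, TRX2 and AT1G76550 (r 0.96 to 0.97). HSP70b had no such close partner, its first being AT4G22820 with r of 0.87, followed by GRX480 and AT1G33490.

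For 3 of the genes a neighbour was annotated that is transcribed in the other direction from a nearby start. The upstream edges were 126 bases apart for HSP70b and AT1G16040, 119 for BAG6 and AT2G46230 and 381 for HSP101 and AT1G74320. None of these neighbours was called in wt from 10 to 30 min (log2 −0.44, 0.16 and 0.36, adjusted p 0.324, 0.54 and 0.417). AT2G46230 stood at 41.8, 43.0 and 30.7 CPM at 10 min and at 48.5, 39.6 and 40.8 CPM at 30 min, overlapping, where BAG6 did not overlap. HSP90.1 had a TC in no gene value on the other strand (chr5:21352123-21352138), 233 bases upstream, at 0, 0.0911 and 0.0647 CPM in wt at 10 min and 1.09, 0.337 and 0.166 CPM at 30 min, which was not called (adjusted p 0.1).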

How the data were processed

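CAGE tags were counted in 15 libraries of whole Arabidopsis seedlings treated with flg22, in 5 groups of 3 named by the labels. The authors trimmed reads to 25 bases, mapped them to TAIR10 with Bowtie 1.1.2, kept uniquely mapped reads, summed their 5′ ends and joined neighbouring ends into TCs with CAGEfightR, dropping clusters of low expression. The deposited count tables hold raw tag counts per TC and per gene, which the authors did not normalise. The deposited TPM tables were not used here. Each table held 9 columns that match no labelled sample, and these were not used. Counting only unique reads lowers the values of TCs in repeated sequence. Replicates were separate pools of seedlings from the same batch of seed, grown side by side. They were treated at the same time in separate wells, so p-values measure the spread between pools treated together. Tags were not marked by molecule.

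TCs were assigned to genes through exact sums of counts in all libraries (18934 of 18934 genes). Positions came from the TAIR10.1 genome and annotation, whose nuclear chromosomes match TAIR10. The tables give no peak position, so distances run from cluster edges. Counts were tested with edgeR 4.0.16 (R 4.3.3) by quasi-likelihood with TMM, filterByExpr (55 genes and 173 TCs removed) and 1 coefficient per group over all 15 libraries, with Benjamini-Hochberg adjustment over all features. For TC use, voom and diffSplice (limma 3.58.1) were run on TCs that held 10% or more of their gene's tags in 3 or more libraries. Levels are CPM, and means are given ± SD. Identity was computed between coding sequences, in place of the planned protein identity. The scripts were tested on simulated data. Alternatives were library sizes alone, DESeq2 1.42.0, limma voom, no filter, only the groups compared, a replicate block, no fold change limit and leaving out each library.

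The 10 genes and the lists of other genes were chosen with earlier results of these data known. All 10 genes and their TCs were named. Of each other list, up to 3 genes with the largest called change and at least 5 CPM on average were named, and for likeness the 3 genes with the highest r.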

Additional observations from a re-analysis of the deposited data

How the results depend on the processing

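The downstream TC of HSP70b had 6 to 12 tags per wt library at 10 min, so its fold change is loosely bounded. Replicate 3 of wt at 30 min was the highest of its group for 9 of the 10 genes, and the call of BAG6 in rrp4-2 was lost without it.

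The counts of called genes over time, 10 in wt and 9 in hen2-4, stayed within 9 to 10 and 8 to 9 when a library was left out, and those of TCs within 39 to 43 and 37 to 40. With any library left out, the 4 TCs called for use in each genotype stayed at 4, and the gene counts of the interaction, of hen2-4 against wt at 10 and 30 min and of rrp4-2 against hen2-4 stayed at 0. Those of rrp4-2 against wt ranged from 0 to 1 for genes and TCs, and that of TCs of hen2-4 against wt at 10 min from 0 to 1. In a fit of only the groups compared, rrp4-2 against wt gave 0 genes and 0 TCs, and rrp4-2 against hen2-4 gave 1 gene and 1 TC. Scaled by library sizes alone, the TCs of rrp4-2 against wt numbered 0, and the upstream TC of HSP70b fell past the fold change limit in hen2-4 (log2 −1.11, adjusted p 0.00515). DESeq2 gave 1 gene for rrp4-2 against hen2-4 and 1 TC for hen2-4 against wt at 10 min. The cause of these differences was not tested. The fall in upstream share ranged from −58.8 to −49.5 points for HSP70b and from −69.5 to −63.8 for BAG6, and the change for HSP90.1 from 1.49 to 3.77, below an unadjusted p of 0.05 in 1 case, without hen2-4 replicate 3 at 10 min (3.75 points, exact permutation p 0.045). Measured on the TC with the most tags, the BAG6 change was 67.2 points, the opposite sign by construction, since that TC is the downstream one.

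The replicate number as a block gave 10 and 9 genes over time, 41 and 41 TCs, and 1 TC for hen2-4 against wt at 10 min, the downstream TC of HSP70b (log2 2.38, adjusted p 0.0208). The numbers did not pair the libraries, as 11 of 30 same-numbered pairs had correlated deviations above 0.1 (range −0.392 to 0.451). Of 970 alternative values for single genes, 956 kept their status as called or not called, 12 lost a call and 2 gained one. The 12 losses fell on HSP70b in wt over time, HSC70-1 in hen2-4 over time and BAG6 in rrp4-2 against wt. For TCs, 4581 of 4629 kept their status. No called value of a single gene or TC changed sign. Among values called in neither fit, the sign changed for 45 of the 970 for genes and 283 of the 4629 for TCs. The signs of uncalled differences are therefore less firm.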
